A study of Rattus norvegicus with 18 samples.

Results

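A set of 164 genes, of 27654 in the deposited table, stood far higher in replicating than in quiescent beta cells of both old and young rats. The genes were chosen by their measured values in a table of normalized log2 levels, where a level is the log2 of a read count divided by a size factor for sequencing depth, plus 1. A member had to stand at least 3 log2 units, that is 8-fold on this scale, higher in the mean of the replicating than of the quiescent libraries, once in old and once in young cells. It also needed a mean of at least 6 in the young replicating libraries. These thresholds were met by 167 genes, and 3 of them were left out by identifier, which leaves the 164. Before the floor on level, 578 genes met the threshold in old cells, 238 in young cells and 182 in both.

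Beta cells are the insulin-making cells of the pancreatic islet. In rodents they divide often in early life and rarely in later life. A dividing cell copies its DNA in S phase, and EdU, a thymidine analogue, is built into the new DNA, so that the label marks cells that copied DNA while it was present. In most tissues a dividing cell makes much more RNA from the genes for DNA copying, chromosome separation and cell division than a resting cell, in which many of these genes are held nearly silent. Whether the 164 genes belong to these classes was not tested. The files give Ensembl rat identifiers without names, and 0 of the 164 could be matched to the 47357 genes of the reference table, so roles, promoters and gene lists were not used here.

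RNA was sequenced in 18 libraries of cells from islets that had been cultured overnight at 11.1 mM glucose and exposed to 10 micromolar EdU. The 4 groups were old quiescent (n = 4), old replicative (n = 4), young quiescent (n = 5) and young replicative (n = 5) libraries. The design text names 9 islet batches from 2 rats each, so a library stands for pooled animals, and all groups shared the culture and the EdU. The sources used here do not give strain, sex, the ages in weeks or the gate of the cell sort. The labels name pancreatic islets, the design text beta cells, and defining markers of beta or other islet cells could not be checked without gene names. Total counts ran from 2723660 to 14222719 per library. Old replicative replicate 3 was the shallowest replicative library at 2975086 counts and held counts for 11859 genes, against 13310 to 17772 in the other old replicative libraries.

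Together the 164 genes made up a trace of the RNA in quiescent cells and about 1 to 2.5 percent in replicating ones. In old quiescent libraries 1 to 4 they took 0.0311%, 0.0309%, 0.0257% and 0.0233% of all counts, a mean of 0.0278% ± 0.00386 (SD, n = 4). In old replicative libraries 1 to 4 they took 1.92%, 1.63%, 0.996% and 1.53%, a mean of 1.52% ± 0.386 (SD, n = 4). Young quiescent libraries 1 to 5 gave 0.0751%, 0.0515%, 0.0397%, 0.0311% and 0.0370%, a mean of 0.0469% ± 0.0174 (SD, n = 5). Young replicative libraries 1 to 5 gave 1.75%, 2.35%, 2.46%, 1.86% and 1.30%, a mean of 1.94% ± 0.471 (SD, n = 5). The mean share was thus 54.7 times as large in old replicative as in old quiescent libraries and 41.5 times as large in the young pair. Since the genes were chosen for this difference, these values give its size and are no test of it. Among quiescent libraries the widest 95% Wilson interval was that of young quiescent replicate 2, at 0.0489% to 0.0543%, which covers counting error only. In RNA from many cells, a smaller number of cells that carry these transcripts and less of them per cell cannot be told apart.

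**Figure D1:**
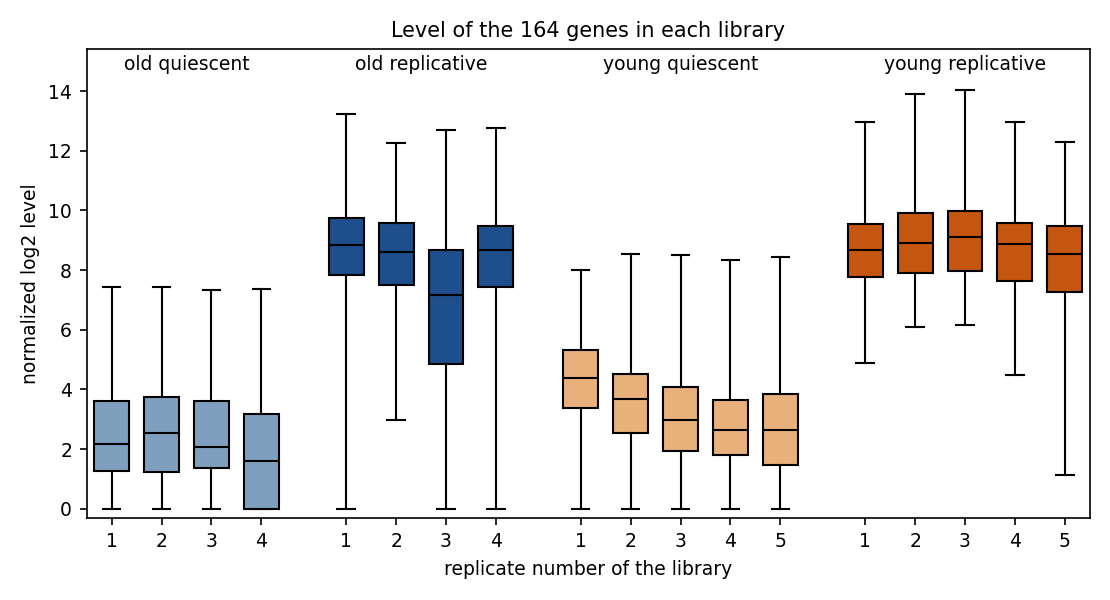
Normalized log2 level of the 164 genes (vertical axis) in each of the 18 libraries (horizontal axis, replicate number within group). Boxes span the quartiles with the median as a line, and whiskers reach the lowest and highest gene. The median gene lies between 1.60 and 4.40 in quiescent and between 7.17 and 9.12 in replicative libraries, with old replicative replicate 3 lowest among the latter.

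The median member had a group mean of 2.07 log2 units in the quiescent and 8.05 in the replicative libraries of old cells. In young cells these means were 3.12 and 8.79. Differences between replicating and quiescent cells ran from 3.06 to 9.08 log2 units in old cells, with a median of 5.38, and from 3.00 to 7.66 in young cells, with a median of 5.55. In old cells 13 members differed by 8 log2 units or more, and in young cells 0 did. At the other end, 30 members in old and 23 in young cells lay between 3 and 4. The edge of the set is not a gap: the nearest genes inside and outside the threshold stood at 3.06 and 2.98 in old cells, at 3.00 and 2.99 in young cells, and at 6.08 and 5.9986 for the young replicative level. Just outside, by 0.5 log2 units or less, lay 8, 13 and 5 further genes that met the other conditions.

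The rule set a gap of at least 3 log2 units between the group means. For most members the replicating and quiescent libraries then did not overlap. In young cells all 5 replicative libraries lay above all 5 quiescent ones for 160 of the 164 genes, and 4.73% of the 14920 tested genes did so. In old cells this held for 132 members, against 6.33% of tested genes. For 28 of the 32 members that overlapped in old cells, old replicative replicate 3 was at or below the highest quiescent library, and without that library 5 members overlapped. A quasi-likelihood test in edgeR with Benjamini-Hochberg adjustment over all tested genes called 134 members higher in old replicating cells (2.46% of tested genes) and 164 in young ones (3.96%). The rule used both contrasts, so nothing is read from these counts or from the lack of overlap.

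The member with the highest mean level over the 9 replicative libraries was ENSRNOG00000003388. It stood at 3.53, 3.49, 3.94 and 3.29 log2 units in old quiescent libraries and at 13.23, 12.26, 12.34 and 12.76 in old replicative ones. In young quiescent libraries it stood at 7.09, 6.99, 6.20, 4.17 and 4.07, and in young replicative ones at 12.98, 13.91, 14.05, 12.95 and 12.28. Every replicative library was thus above every quiescent one, and young quiescent libraries spread over 3 log2 units while old quiescent ones stayed within 1. As CPM, counts scaled to a common library size with TMM factors, it went from 1.81 ± 0.402 to 1003 ± 334 in old cells (SD, n = 4 each) and from 11.05 ± 8.19 to 1624 ± 781 in young cells (SD, n = 5 each).

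The second highest, ENSRNOG00000009339, stood at 2.57, 2.83, 3.17 and 2.13 log2 units in the quiescent libraries of old cells and at 11.70, 12.07, 10.99 and 11.76 in their replicative libraries. Its young quiescent libraries stood at 5.27, 5.10, 4.26, 4.46 and 3.29 and its young replicative ones at 11.40, 12.13, 12.03, 11.57 and 11.27. The old and young replicative libraries overlapped, while the lowest young quiescent library was above the highest old quiescent one. With old quiescent counts of 5 to 9 reads per library, the quiescent levels of this gene rest on few reads.

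**Figure D2:**
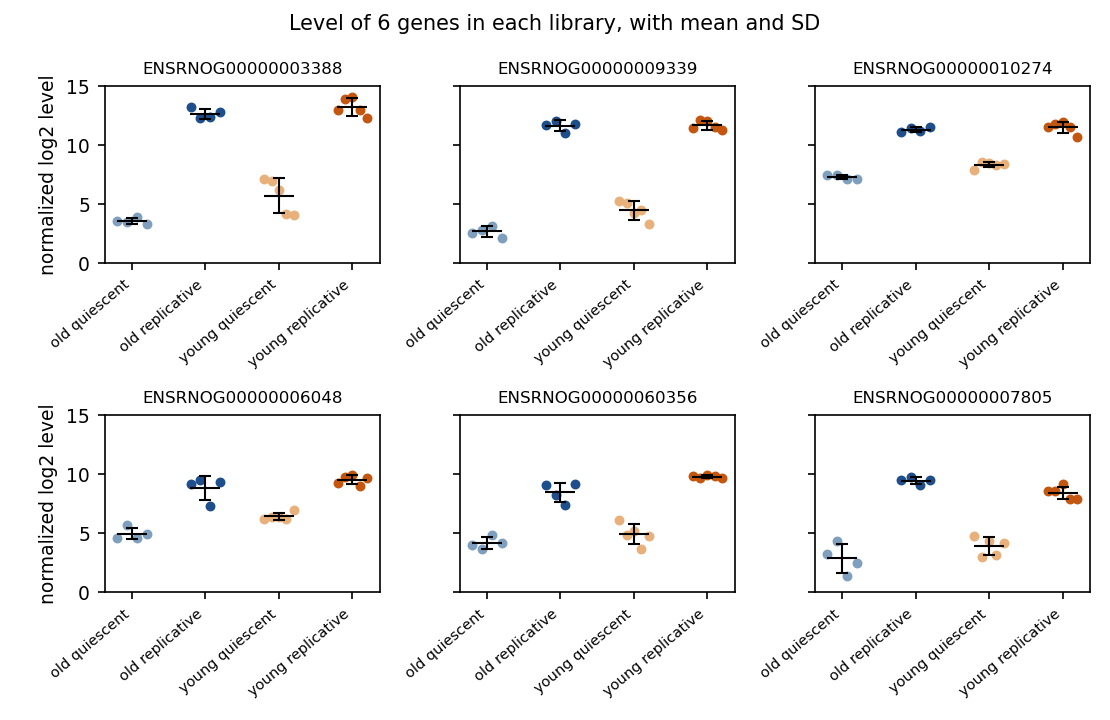
Normalized log2 level (vertical axis) of 6 genes in each library of the 4 groups (points), with group means and SD (black). In each panel the replicative libraries lie above the quiescent ones of the same age. The old and young quiescent groups do not overlap for ENSRNOG00000003388, ENSRNOG00000009339, ENSRNOG00000010274 and ENSRNOG00000006048, and overlap in the other panels.

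In quiescent cells most members stood lower in old than in young libraries. The rule did not compare the ages, but it used the quiescent mean of each. The calls and differences below thus describe the members and are no test independent of the rule. In a fit of the 9 quiescent libraries 145 of the 164 genes had a negative old minus young difference, where 54.2% of all tested genes did. The median difference of the members was -1.03 on the log2 scale and that of all tested genes -0.04. A lower value at an unadjusted p under 0.05 was found for 30 members (9.05% of all tested genes) and a higher one for 0. After adjustment over all tested genes 3 members were called lower in old quiescent libraries (0.61% of tested genes) and 0 higher. All 4 old libraries lay below all 5 young ones for 19 members (4.26% of tested genes), and the reverse held for 0 members (1.96% of tested genes).

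Members shared this direction with other genes of low level. Members had a median of 2 to 15 reads per library in quiescent cells, and all tested genes a median of 39 to 175. Split after the data were seen by the mean level over the 9 quiescent libraries, 47 of 51 members under 2 log2 units were lower in old cells, 92.2%, beside 88.6% of the 986 other tested genes at that level, with medians of -2.01 and -1.68. Between 2 and 4 it was 72 of 83 members, 86.7%, beside 70.2% of 2552 other genes, with medians of -0.996 and -0.52. Between 4 and 6 it was 21 of 22 members, 95.5%, beside 57.2% of 2816 other genes, with medians of -0.64 and -0.08. Of the 8 members above 6, 5 were lower in old cells, 62.5%, beside 43.6% of 8402 other genes, with medians of -0.05 and 0.04. No test was made of these shares or of how they differ between levels.

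**Figure D3:**
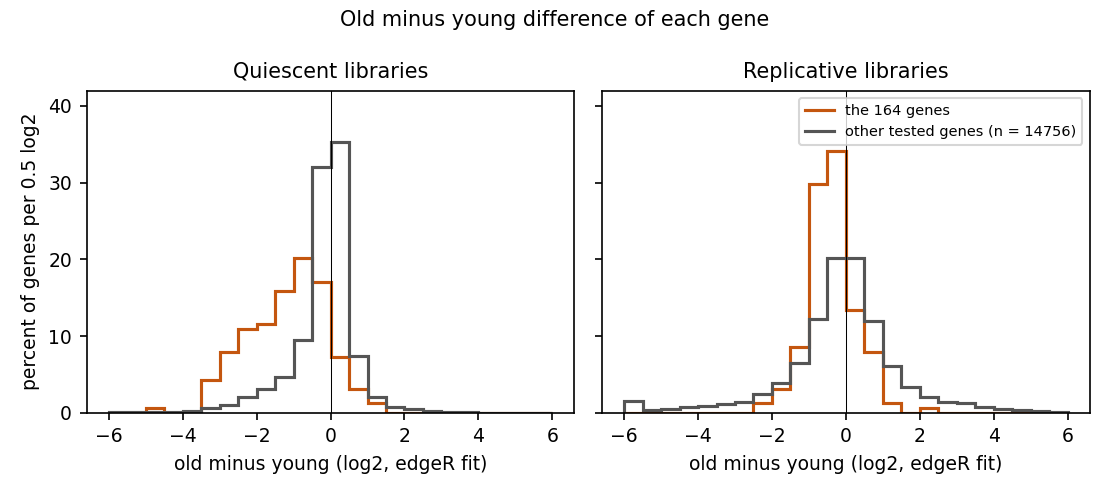
Old minus young difference of each gene in log2 units (horizontal axis, values beyond 6 placed in the outermost bins) in quiescent and in replicative libraries, as the percent of genes per 0.5 log2 units (vertical axis). Orange, the 164 genes; grey, the 14756 other tested genes. In quiescent libraries the members lie mostly left of 0, with a median of -1.03, and in replicative libraries their median is -0.38.

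The clearest age difference in quiescent cells was that of ENSRNOG00000010274, the member ranked 3 by replicative level. It stood at 7.44, 7.43, 7.16 and 7.13 log2 units in old quiescent libraries and at 7.93, 8.53, 8.49, 8.33 and 8.43 in young ones. All young libraries were above all old ones, at 51.7 ± 9.92 CPM (SD, n = 5) against 25.7 ± 2.42 CPM (SD, n = 4). The edgeR quasi-likelihood fit gave an old minus young value of -1.002 log2 units (SE 0.174, adjusted p = 0.0124). It had the smallest p of the members, and so was chosen after its values were seen. Without old quiescent replicate 4 its adjusted p was 0.0563.

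The next, ENSRNOG00000006048, stood at 4.60, 5.66, 4.64 and 4.98 in old and at 6.22, 6.36, 6.42, 6.24 and 6.95 in young quiescent libraries. Again the groups did not overlap, and the log2 difference was -1.37 (SE 0.289, edgeR adjusted p = 0.0314). Its adjusted p rose above 0.05 without old quiescent replicate 3 (0.0885) or 4 (0.108), or without young quiescent replicate 2 (0.0623), 3 (0.0740) or 5 (0.0851). Besides these, 1 more member was called, with 0 counts in 3 of the 4 old quiescent libraries, 2 in the other and 5 to 22 in the young ones (edgeR adjusted p = 0.0417). The most abundant members differed by more but varied more: the fit gave ENSRNOG00000003388 a value of -2.61 (SE 0.631, edgeR adjusted p = 0.0614) and ENSRNOG00000009339 one of -1.99 (SE 0.538, edgeR adjusted p = 0.0789).

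The number of members called in quiescent cells depended on single libraries. It was 0 without old quiescent replicate 4, where 25 of all tested genes were called lower, and 5 without young quiescent replicate 4, where 88 were. It was 1 without old quiescent replicate 3 or young quiescent replicate 2 or 3, where 38, 34 and 38 genes were called lower. At an unadjusted p under 0.05 the count of lower members was 16 without old quiescent replicate 4. The share of all tested genes at that p was not computed without this library. A model of all 4 groups with 1 shared spread called 0 members lower and 0.0067% of tested genes. DESeq2 called 9 of the 121 members with an adjusted p lower, and 2.85% of its tested genes. Limma-voom with sample quality weights called 5 lower, and 3.1% of tested genes. The median difference fell in size to -0.58 without young quiescent replicate 1, with 126 of 164 members still negative.

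In replicating cells the edgeR fit called no member different between the ages. The fit of the 9 replicative libraries called 0 of 164 members, where it called 0.503% of all tested genes. With so small a share over all genes, this 0 does not set the members apart. A model of all 4 groups with 1 shared spread also called 0 members, with 491 of 14920 tested genes called higher and 578 lower. At an unadjusted p under 0.05, 14 members were lower in old cells (6.23% of tested genes) and 2 higher (5.83%). The lower count was 28 without old replicative replicate 1, 7 without young replicative replicate 2 and 5 without young replicative replicate 3. Without old replicative replicate 3 there were 13 lower and 9 higher. The share of all tested genes was not computed with a library left out, so these counts do not set the members apart. DESeq2 called 1 member lower (1.61% of its tested genes), limma-voom with sample quality weights 1 higher (1.55%) and edgeR without a low-count filter 1 lower (0.251%). The sign was negative for 126 members, against 52.1% of tested genes, and the median was -0.38, against -0.04 over all tested genes. This gap depended on the processing. Without a low-count filter the medians were -0.38 for members and -0.48 over all tested genes. In limma-voom with sample quality weights they were -0.56 and -0.43, and in every setting with the filter the members' median was the lower. Old libraries lay wholly below young ones for 5 members (3.82% of tested genes) and wholly above for 0 (2.49%). The rule also used the replicative mean of each age, so these values are no test independent of it. The floor on the young replicative mean bears on this contrast, since a gene low in young replicating cells could not enter the set.

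ENSRNOG00000060356 had the smallest p among members lower in old replicating cells. It stood at 9.09, 8.23, 7.38 and 9.16 in old and at 9.83, 9.68, 9.95, 9.83 and 9.72 in young replicative libraries. The young libraries were within 0.3 log2 units of each other and all above the old ones, and the log2 difference was -1.18 (SE 0.365, edgeR adjusted p = 0.190). In the other direction ENSRNOG00000007805 stood at 9.50, 9.78, 9.06 and 9.49 in old and at 8.54, 8.57, 9.17, 7.91 and 7.93 in young libraries. Its groups overlapped by 1 library on each side, and the log2 difference was 0.97 (SE 0.358, edgeR adjusted p = 0.256). Both were chosen after their values were seen, and neither difference passed the threshold.

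The members' status difference, replicative minus quiescent, was not shown to differ between the ages. The rule set a floor on the status difference in each age, and the interaction is made of those same differences. Its values describe the members and are no test independent of the rule. The interaction of age and status in a model of all 18 libraries called 0 members, and 0.0268% of tested genes. It was positive, that is a larger status difference in old cells, for 122 of 164 members (49.2% of tested genes), with a median of 0.63. Without young quiescent replicate 1 it was positive for 98 members, with a median of 0.25. With the replicate number as a block it was positive for 112 members, with a median of 0.39. The median over all tested genes was -0.36 with the block and -0.02 without it. At an unadjusted p under 0.05 there were 22 members with a larger status difference in old cells (4.23% of tested genes) and 0 with a smaller one. The first count was 12 without young quiescent replicate 1, with 2 smaller, 11 without old quiescent replicate 4 and 34 without old replicative replicate 3, with 1 smaller. For these refits the share of all tested genes was not computed, so the changes are not read as a trait of the members. DESeq2 called 5 members, all larger in old cells, and 0.728% of its tested genes in that direction. Without old replicative replicate 3 the edgeR model called 2 members larger in old cells, of 7 tested genes so called, and 40 genes were called smaller. On the means of the deposited log2 levels the balance was close to even, with a larger status difference in old cells for 86 members and in young cells for 78, and a median of 0.09.

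Members with a large status difference in one age tended to have a large one in the other. Across the 164 genes the 2 differences had a Pearson correlation of 0.698 and a Spearman correlation of 0.706. The genes share libraries and the rule removed small values on both axes, so this is a description. The mean levels of old and young replicative libraries correlated at 0.828 across members, and those of old and young quiescent libraries at 0.898 (Pearson). The status difference was at least 1 log2 unit larger in old cells for 35 members and at least 1 larger in young cells for 28. Among the 28, 18 had 0 counts in at least 1 old replicative library, and among the 35, 1 did. The 28 had a median level of 5.74 in old and 7.997 in young replicative libraries, while the 35 stood at 8.85 and 8.78. The 35 differed at the quiescent end, with medians of 1.63 in old and 3.58 in young libraries. Both subsets were split on differences that these levels and zeros enter, and a 0 count lowers the old replicative mean. The values thus describe the subsets and test nothing.

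**Figure D4:**
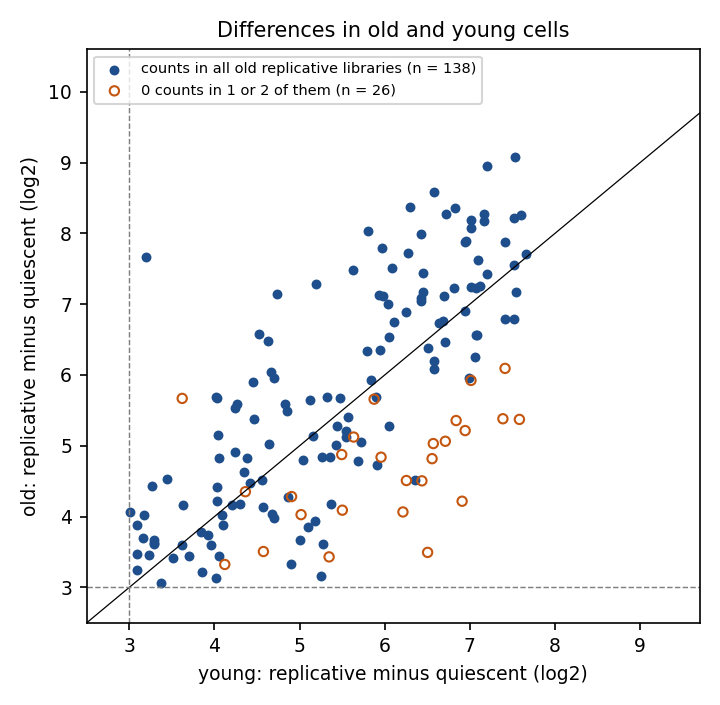
Replicative minus quiescent difference of each of the 164 genes in log2 units, in young (horizontal axis) and old cells (vertical axis), with the line of equal values and the thresholds at 3 (dashed). Open circles are the 26 genes with 0 counts in at least 1 old replicative library, and 25 of them lie below the line. A 0 count itself lowers the value on the vertical axis.

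Members, like all tested genes, varied less among replicating libraries of young than of old cells. The median SD of a member was 0.50 log2 units over the 5 young replicative and 1.07 over the 4 old replicative libraries, and the old value was the larger for 128 of 164 genes. All tested genes showed medians of 0.76 and 1.55 in the same groups. In quiescent libraries members varied more than all tested genes, with median SDs of 0.77 for members and 0.35 for all tested genes in old cells, and 0.95 and 0.39 in young cells. Members had a median of 2 to 15 reads per quiescent library and all tested genes 39 to 175, so the 2 SDs compare genes of unlike read counts. Without old replicative replicate 3 the median SD of members in old replicative libraries was 0.55 and that of all tested genes 1.05.

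Old replicative replicate 3 was the lowest library of its group for 112 members, 68.3%, and for 33.1% of tested genes. Its median member stood at 7.17, and those of replicates 1, 2 and 4 at 8.83, 8.60 and 8.66. It held 0 counts for 23 of the 164 members and for 29.9% of all tested genes. Replicates 1, 2 and 4 held 0 counts for 1, 0 and 3 members, and for 6.08%, 12.5% and 20.8% of all tested genes. Of the 26 members at 0 in any old replicative library, 16 were among the 55 with the lowest young replicative levels, 8 among the middle 54 and 2 among the highest 55. No old replicative library was at 0 for the other 138 members, and no young one for any of the 164. The rule's floor on the young replicative mean bears on the young count. Whether the depth of replicate 3 or its small number of detected genes takes part in the low values was not tested.

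Among young replicative libraries, replicate 5 was the lowest for 89 members, 54.3%, and replicate 3 the highest for 60, 36.6%. Over all tested genes these shares were 36.6% and 13.8%. Replicate 5 had counts for 14759 genes, and replicates 1 to 4 for 23683, 21315, 22394 and 15462. Compared with the 8321 other genes at a young replicative mean of at least 6, which had replicate 5 lowest in 31.9% and old replicative replicate 3 lowest in 39.4%, the members leaned more to these 2 libraries.

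Among young quiescent libraries, replicate 1 was the highest for 112 members, 68.3%. Its median member stood at 4.40, and those of replicates 2 to 5 at 3.69, 2.96, 2.64 and 2.65. Other weak genes came close to this share: of those with a mean quiescent level under 4, replicate 1 was highest for 72.4% of 134 members and for 69.7% of 3538 other tested genes. At 4 or more it was 15 of 30 members, 50.0%, and 29.0% of 11218 other genes. The library also held counts for the most genes of its group, 23879.

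**Figure D5:**
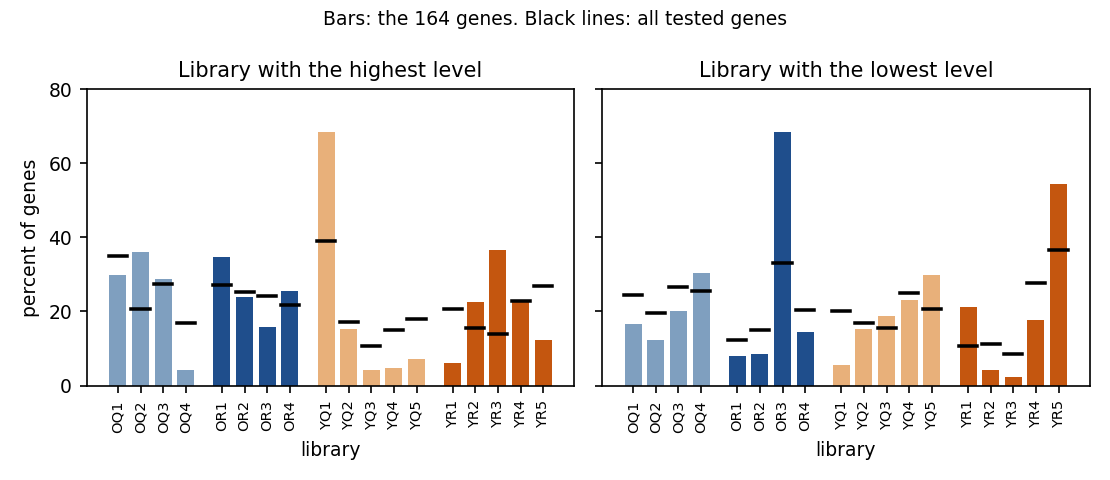
Percent of genes (vertical axis) for which a library (horizontal axis; O old, Y young, Q quiescent, R replicative, with the replicate number) had the highest level (left) or the lowest level (right) of its group; ties count for no library. Bars are the 164 genes and black lines all tested genes. Bars stand far above the lines for the highest level in young quiescent replicate 1, at 68.3%, and for the lowest level in old replicative replicate 3, at 68.3%.

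Set against the replicating libraries of the same age, the residual level in quiescent cells was unequal between members. The rule's floor of 3 log2 units required it to be small, so the values below describe its size and test nothing. On a linear scale the mean quiescent level of the median member was 0.987% of its mean replicative level in old cells, with quartiles of 0.419% and 3.47%. In young cells it was 2.15%, with quartiles of 0.992% and 4.58%. By library the median ran from 0.568% to 1.06% in old cells, and from 1.06% to 3.79% in young cells, with replicate 1 at the top. The highest member reached 11.8% in old and 14.6% in young cells. The 19 members with a young quiescent level of 5 or more had smaller status differences, with medians of 4.02 in old and 3.64 in young cells, than the other 145, at 5.66 and 5.84, which follows in part from the subtraction. In old quiescent libraries 99 members had counts in all 4 libraries and 2 had counts in none. In young quiescent libraries 126 had counts in all 5 and 0 were without counts in every library.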

How the data were processed

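The authors deposited a table of read counts by Ensembl gene identifier and a table of log2 values. The submitters' processing notes name STAR, DESeq2 and the genome build rn6 without saying what each did. The sources used here do not give the counting program, annotation release or strand setting, so overlapping and near-identical genes are uncertain. The deposited log2 values were recomputed as log2(count over a median-of-ratios size factor + 1) (largest difference 5.3e-14). Columns left unused: 0. Members were found on the log2 table, by group means.

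Counts were tested in R 4.3.3 with edgeR 4.0.16 (TMM factors, robust quasi-likelihood F test). filterByExpr over all 18 libraries (minimum count 10, minimum total 15) kept 14920 genes, the 164 members among them, and removed 12734. Each comparison of 2 groups was fitted on those groups alone, because the spread differs between groups, and the interaction on all 4. Libraries were not paired in these fits. P-values were adjusted by Benjamini-Hochberg over the 14920 genes, with a threshold of 0.05. SEs are the log2 difference divided by the square root of F. The script was tested on simulated counts with the same spread setting for every gene and library. That checks the code but not how the test behaves with the unequal spread of these groups. Alternatives were DESeq2 1.42.0, limma 3.58.1, other scaling, no filter, a replicate block and each library left out.

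The members, lists and designs were chosen with earlier results of these data known. The rule for named genes without symbols gave the 2 members with the highest replicative mean; 4 others were named after their values were seen. The 22 gene lists and the promoter search could not be applied without names. Separate animals per library are named in the design text only as batches of 2 rats, and old and young cells came from different batches.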

Additional observations from a re-analysis of the deposited data

Results flagged for a closer look

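In 36 groups of library values checked for a library far from the others by Dixon's ratio, 4 stood apart; chance alone gives about 1 in 20. The median member level of old replicative replicate 3 was 7.17 log2 units, with the other libraries at 8.60 to 8.83. The same library held counts for 141 members, against 161 to 164. ENSRNOG00000006048 stood at 7.35 in that library and at 9.20 to 9.48 in the other old replicative ones. In young quiescent replicate 5 the same gene stood at 6.95, with the others at 6.22 to 6.42.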

How the results depend on the processing

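The set held 156 to 179 genes with each library left out in turn, the highest without old replicative replicate 3, of which 161 were members, and 164 on TMM-scaled levels, of which 162 were members. For quiescent cells, the 3 members called became 0 in a model of 4 groups, 9 in DESeq2 (of 121 members with an adjusted p), 5 in limma-voom with sample quality weights and 0 to 5 with a library left out. Over all genes tested, those settings called 1, 408 and 463 lower, and 91 in the setting reported. For replicating cells the 0 became 1 in DESeq2, in limma-voom with sample quality weights and without a low-count filter, and stayed at 0 with each library left out; over all genes these 3 settings called 227 lower, 231 higher and 67 lower. The interaction's 0 became 5 in DESeq2, which called 105 genes higher and 191 lower, and 0 to 2 with a library left out. The median age difference of members ran from -1.19 to -0.58 in quiescent and from -0.67 to -0.20 in replicating cells, and the median interaction from 0.09 to 0.74, with 0.25 without young quiescent replicate 1 and 0.39 with the replicate block. For ENSRNOG00000009339 the age difference in replicating cells turned to 0.13, 0.08 and 0.04 without old replicative replicate 3, young replicative replicate 2 and young replicative replicate 3, in a range of -0.21 to 0.13 with each library left out. The cause of these changes was not tested. Library scaling moved no count of members called by over 1.5 times.

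Replicate numbers may mark the batch, but the labels do not say so. Same-numbered libraries deviated together with correlations of 0.0714 to 0.506, each the best partner of its number, a hint from the data. With the replicate block, 123 members were called higher in old and 163 in young replicating cells (134 and 164 without), and the interaction called 0. Of 14920 tested genes the block called 382 and 656 higher, and in the interaction 9 higher and 2 lower. The status contrasts are those of the rule, so their counts are no test. The age comparisons share no batch, so no block could be fitted to them. The cell cycle lists were not run. Quiescent values rest on a median of 2 to 15 reads per member, which limits their precision.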
